A study of Mus musculus with 16 samples.

Results

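The genes described here are the core machinery by which mitochondria fuse, divide and are marked for removal: Mfn1, Mfn2, Opa1, Dnm1l, Fis1 and Pink1. Every non-control probe carrying one of these 6 gene names on the array was taken, which gave 12 of 55681 probes and 6 of 34650 gene names. The RNA came from gastrocnemius, a calf muscle, of male C57BL6 mice 8 to 16 weeks old, which were either wild type (WT) or heterozygous for a mutation of Eif6 (Het, Eif6+/-), and the labels give no treatment. Eif6 encodes a factor that binds the large ribosomal subunit and takes part in translation initiation. Each muscle gave RNA of the whole tissue, RNA of the polysome fractions of a sucrose gradient (mRNA carrying several ribosomes) and RNA of the monosome fraction (a single ribosome). Arrays existed for 3 WT and 3 Het mice in whole muscle and in polysomes, and for 2 and 2 in monosomes, 16 arrays in all. The measurements are of the tissue as a whole, in which fewer cells of a type and less RNA per cell cannot be told apart.

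Mitochondria form a network whose outer membranes are joined by the mitofusins Mfn1 and Mfn2 and whose inner membranes are joined by Opa1, a dynamin-like GTPase that also shapes the cristae. Division is carried out by Dnm1l (Drp1), a cytosolic dynamin that assembles on the outer membrane, where Fis1 is one of the proteins assigned to its recruitment. Pink1 is a kinase that accumulates on damaged mitochondria and starts their marking for autophagy. In skeletal muscle this cycle is known for its part in mitochondrial quality and in the response to exercise and fasting.

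A probe of 60 bases reads only one stretch of a transcript, so the position of the probe decides what is measured. The probes for Opa1 and for Pink1 are shown with 30 bases each, as the array files give them. The Opa1 positions gave different results with all mice. The Pink1 polysome to whole-muscle ratio did not overlap between genotypes. The pair for Opa1 begins at base 3188 and at base 5760 of the transcript named by the design, 2572 bases apart on chromosome 16 (build mm9), and the Pink1 probe holds the hexamer ATTAAA, a variant polyadenylation signal, in capitals.
Opa1 upstream (A_55_P1964842): ttgaagaatgaaaacttgagtcttttgtcc
Opa1 downstream (A_52_P242724): ctgtagcaactggaaatgtgcttgaaaata
Pink1 (A_55_P2053718): aaagatgcgagcATTAAAgacagtctccat

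The single Dnm1l probe is shown because its signal was lost on one array. It holds the hexamer AATAAA, the usual polyadenylation signal, again in capitals.
Dnm1l (A_55_P1952905): atgttctatgtaAATAAAaatgctggtgtg

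One of these hexamers, searched on the probe's own strand, was present in 2 of the 10 measured probes of the 6 genes and in 18.1% of all 19812 probes tested (13.7% for AATAAA and 4.68% for ATTAAA). On build mm9 the probes used for each gene lay on chromosome 3 at 32476215 to 32476274 (Mfn1, plus strand), chromosome 4 at 147247695 to 147247748 (Mfn2, minus strand), chromosome 16 at 29651875 to 29651934 (Opa1, plus strand) and chromosome 16 at 16312331 to 16312390 (Dnm1l, minus strand). The others lay on chromosome 5 at 137442023 to 137442082 (Fis1, plus strand) and chromosome 4 at 137869327 to 137869386 (Pink1, minus strand). Exon and untranslated region were not assigned, because no annotation of this build was used here.

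Of the 12 probes, 10 were tested, covering all 6 genes, because in some group all arrays read them well above background. The 2 that were not tested were an upstream Mfn2 probe (above background on 0 of 16 arrays) and an upstream Fis1 probe (2 of 16). Where a gene had several tested probes, the brightest represents it, and the others are given beside it. All levels are normalized log2 signals, and levels of different probes are not ranked against each other. For Opa1 the gap between its probes is followed across arrays.

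Eif6 itself had 2 tested probes, which were lower in Het than in WT muscle by 0.93 and 1.07 on the log2 scale in whole muscle and by 1.32 and 1.20 in polysomes, with no overlap between genotypes in either RNA. All 9 markers of muscle fibres were well above background on all 16 arrays. Array brightness ranged from 12.7 to 150, and its log2 mean in Het minus WT was -1.81 in whole muscle, 0.83 in polysomes and 0.51 in monosomes. The arrays of WT polysome replicate 2 and WT monosome replicate 2 stood apart: over 1200 pairs of probes to the same gene, the upstream minus the downstream probe had a median of 0.59 and 0.81 there and of -1.35 to -0.79 on the other 14 arrays. Both came from WT mouse 2, and values without that mouse are given beside results that rest on it.

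**Figure D1:**
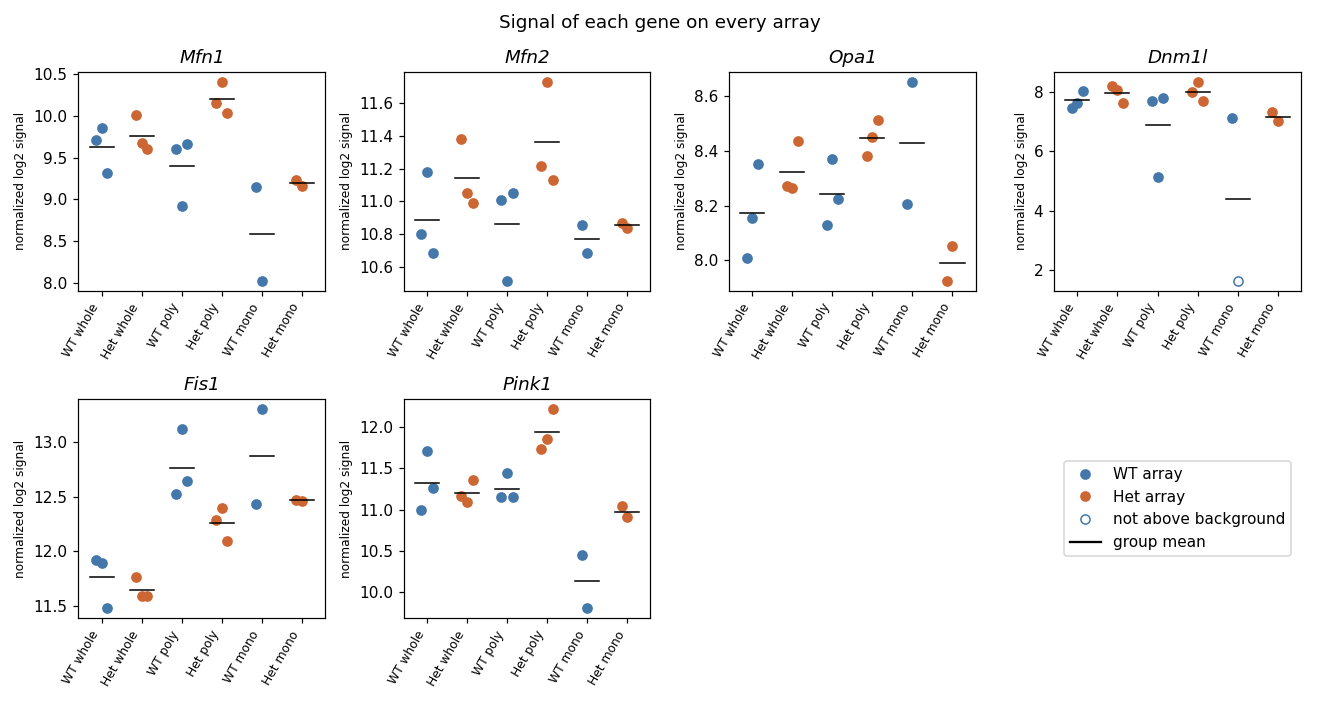
Normalized log2 signal (vertical axis) of the probe representing each gene on each of the 16 arrays, by genotype and RNA kind (horizontal axis). Points are arrays, black lines group means, and open points were not well above background. The 3 Het polysome arrays of Mfn1 and of Pink1 lie above the 3 WT ones, and Dnm1l on WT monosome replicate 2 lies at 1.64 against 7.01 to 7.31 in Het monosomes.

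In whole muscle the 2 genotypes overlapped for all 6 genes, beside 13.5% of all probes without overlap, whereas in polysomes they did not for 5 of them, beside 21.8% of all probes. There, Mfn1 and Pink1 signals were 1.74-fold and 1.61-fold higher in Het than in WT, and Fis1 was 1.42-fold lower, a log2 difference of -0.50 that was -0.32 without WT mouse 2. None of the 3 passed the Benjamini-Hochberg adjustment over all 19812 probes. Pink1 was also the only one of the 6 whose polysome signal relative to whole muscle of the same mouse did not overlap between genotypes, with a difference of 0.80, beside 25.4% of all probes without overlap, so that the share of the 6 genes lay below that of all probes.

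The call rules were an adjusted p below 0.05, and the fold rule of the study's methods, an absolute log2 difference above 1 with p below 0.05, read here as unadjusted. In whole muscle 0 of 6 genes passed the fold rule with limma, beside 5.46% of all probes, and 0 passed on adjusted p, beside 0.0101%. At an unadjusted p below 0.05 the count was 0 of 6, beside 8.5%, and by the methods' t-test it was also 0 under the fold rule. The genotypes overlapped in all 6 genes, whereas they did not in 13.5% of all probes. Differences ran from -0.12 for Pink1 to 0.25 for Mfn2, with a median of 0.14 over the 6 genes and of -0.03 over all probes. Both ends rest on WT mouse 2: with it left out they ran from -0.05 for Fis1 to 0.40 for Mfn2, Mfn1 was at 0.25, Pink1 turned to 0.08, and the medians were 0.18 beside -0.03.

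In polysomes 0 of 6 genes passed the fold rule with limma, beside 5.51% of all probes, and 0 passed on adjusted p, beside 0% of all probes. At an unadjusted p below 0.05 there were 3 of 6 (Mfn1, Fis1 and Pink1), beside 15.3% of all probes. The 3 arrays of one genotype did not overlap the 3 of the other in 5 of 6 genes, beside 21.8% of all probes. Het was the higher genotype for Mfn1, Mfn2, Opa1 and Pink1, and the lower one for Fis1. Over the 10 probes, 9 did not overlap. Without WT mouse 2 the same 5 genes did not overlap, beside 34.5% of all probes. The median difference was 0.59 over the 6 genes and 0.05 over all probes, and without WT mouse 2 these were 0.30 and 0.03.

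Markers of cell types other than fibres were summed on each polysome array. The summed log2 level of 5 of 5 fibroblast markers was 15.78 to 15.84 in WT and 15.18 to 15.34 in Het, and that of 4 red blood cell markers was 14.30 to 15.31 and 13.27 to 13.72, so that the genotypes did not overlap. They overlapped for 6 of 7 immune markers (11.35 to 12.16 in WT and 10.37 to 11.66 in Het), 4 of 5 adipocyte markers (13.03 to 14.43 and 13.78 to 13.92) and 3 of 3 endothelial markers (11.13 to 13.23 and 10.88 to 12.61). The part of these cells in the differences of the 6 genes was not tested.

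**Figure D2:**
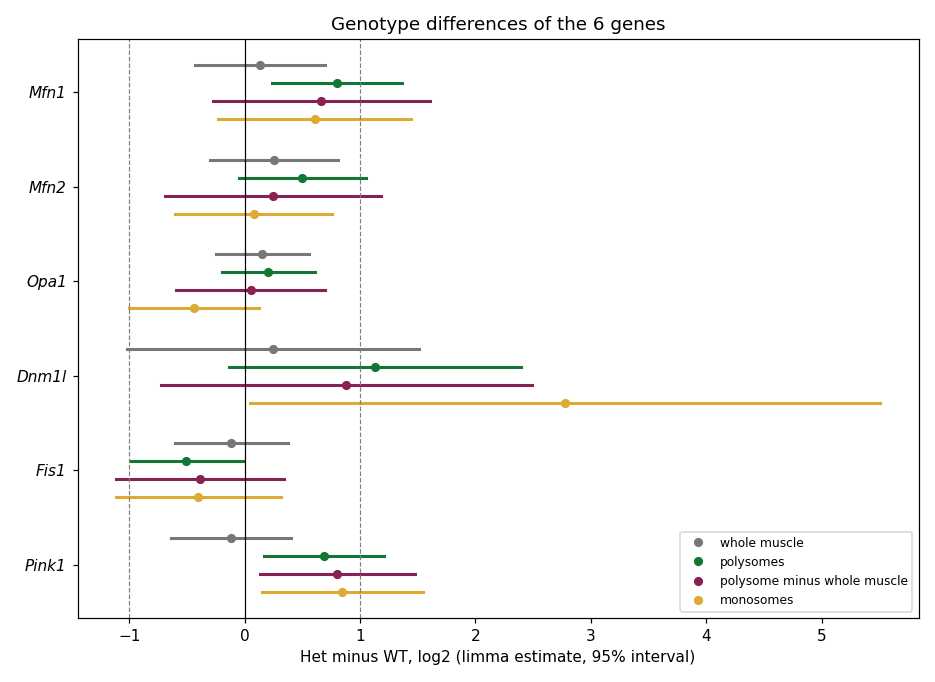
Het minus WT difference on the log2 scale (horizontal axis) for the probe representing each gene (vertical axis), in whole muscle, polysomes, the polysome minus whole-muscle ratio and monosomes. Points are limma estimates, bars 95% intervals, and dashed lines the fold rule at -1 and 1. Polysome intervals of Mfn1, Pink1 and Fis1 leave out 0, and the widest interval is that of Dnm1l in monosomes.

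Of the probes representing the fusion genes, that of Mfn1 alone had an unadjusted p below 0.05 in polysomes with limma. In polysomes its WT arrays read 9.60, 8.92 and 9.67 and its Het arrays 10.15, 10.41 and 10.04. Every Het array was above every WT array. The difference was 0.80 (SE 0.26, 95% interval 0.23 to 1.37), with an unadjusted limma p of 0.0098 and an adjusted p of 0.25. In whole muscle Mfn1 read 9.71, 9.85 and 9.32 in WT and 10.00, 9.68 and 9.60 in Het, so that the genotypes overlapped, and the difference was 0.13 (SE 0.26). The other Mfn1 probe, 205 bases downstream, gave 0.71 in polysomes and 0.24 in whole muscle. WT mouse 2 was the lowest of the WT polysome arrays, and without that mouse the polysome difference was 0.56 with an unadjusted limma p of 0.033.

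Mfn2, which also tethers mitochondria to the endoplasmic reticulum, read 11.01, 10.51 and 11.05 in WT polysomes and 11.22, 11.73 and 11.13 in Het polysomes. The genotypes did not overlap, but the lowest Het array was only 0.08 above the highest WT array. The difference was 0.50 (SE 0.25, limma, adjusted p = 0.36), and it was 0.33 without WT mouse 2. The other tested Mfn2 probes gave 0.60 and 0.55 in polysomes, also without overlap. In whole muscle the 3 probes did not share a sign, with 0.25 for the representing probe and 0.0048 and -0.13 for the others.

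Opa1 gave different answers at its 2 positions with all mice, and closer answers without WT mouse 2. The upstream probe read 8.13, 8.37 and 8.23 in WT polysomes and 8.38, 8.45 and 8.51 in Het polysomes, a difference of 0.21 (SE 0.18, limma, adjusted p = 0.56). Its genotypes were separated by 0.01 only. Without WT mouse 2 they were separated by 0.16, and the upstream difference was 0.27. The downstream probe read 8.11, 5.90 and 8.07 in WT polysomes and 8.35, 8.83 and 8.28 in Het polysomes, a difference of 1.13 (SE 0.49) with an unadjusted limma p of 0.041 and an adjusted p of 0.31. It was the single member probe of 10 to pass the fold rule in polysomes. The value of 5.90 came from WT mouse 2, and without that mouse the difference was 0.40 (unadjusted limma p of 0.12) and the call was lost, while the remaining 2 WT arrays lay 0.17 or more below the lowest Het array.

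The gap between the 2 Opa1 probes was wide on the same 2 arrays that stood apart over all genes. The upstream minus the downstream probe was 2.47 on WT polysome replicate 2 and 7.05 on WT monosome replicate 2, and between -0.38 and 0.98 on the other 14 arrays. Across the 16 arrays it ran with the array's median over 1200 probe pairs (Pearson r = 0.88, a description over arrays that share mice and slides), and over the other 14 arrays r was 0.39. On WT monosome replicate 2 the downstream probe read 1.60 and was not above background, while the upstream probe read 8.65, the highest of its 16 values. The gap of 7.05 is therefore known only as at least 3.41, taken against the lowest signal of any probe well above background on that array, and with that bound in its place r was 0.93.

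**Figure D3:**
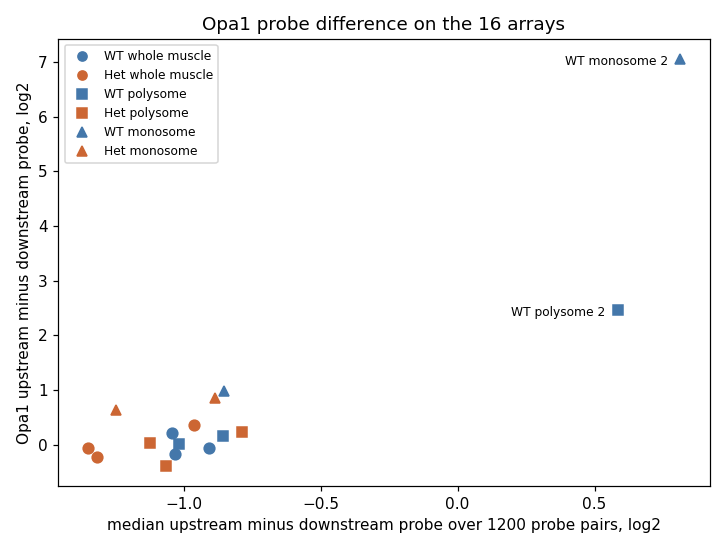
Opa1 upstream minus downstream probe (vertical axis, log2) against each array's median upstream minus downstream difference over 1200 probe pairs (horizontal axis, log2), for the 16 arrays by genotype and RNA kind. WT polysome replicate 2 and WT monosome replicate 2 lie at 2.47 and 7.05, the latter read against a probe not above background, and the other 14 arrays between -0.38 and 0.98.

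Of the fission genes, Dnm1l had the largest mean difference and the widest spread in polysomes with all mice. Without WT mouse 2 the larger difference was that of Fis1 (-0.32). Dnm1l read 7.71, 5.14 and 7.80 in WT polysomes and 7.99, 8.34 and 7.71 in Het polysomes. Only WT mouse 2 stood away from the others, and the genotypes overlapped. The difference was 1.13 (SE 0.58, limma, adjusted p = 0.36), and it was 0.26 without WT mouse 2. In whole muscle Dnm1l read 7.47, 7.64 and 8.02 in WT and 8.19, 8.05 and 7.62 in Het, a difference of 0.25 (SE 0.58). This SE uses a spread shared with the polysome arrays. Without WT mouse 2 the whole-muscle difference was 0.21 (SE 0.28).

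Fis1 was the one gene of the 6 with lower polysome signal in Het. Its WT polysome arrays read 12.52, 13.12 and 12.65 and its Het ones 12.29, 12.40 and 12.09, without overlap. The difference was -0.50 (SE 0.22, 95% interval -0.99 to -0.01), with an unadjusted limma p of 0.045 and an adjusted p of 0.32. In whole muscle Fis1 read 11.92, 11.89 and 11.48 in WT and 11.77, 11.59 and 11.59 in Het, a difference of -0.11. The 2 arrays that stood apart gave the highest Fis1 signals of all 16, 13.12 and 13.30, and without WT mouse 2 the polysome difference was -0.32 with an unadjusted limma p of 0.15.

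Pink1 had every Het array above every WT array in polysomes and in monosomes, and overlapping genotypes in whole muscle. In polysomes it read 11.15, 11.45 and 11.16 in WT and 11.74, 11.86 and 12.22 in Het. The difference was 0.69 (SE 0.24, 95% interval 0.17 to 1.21), with an unadjusted limma p of 0.0139 and an adjusted p of 0.27. In whole muscle the order was not kept: Pink1 read 10.99, 11.71 and 11.27 in WT and 11.17, 11.09 and 11.36 in Het, a difference of -0.12 (SE 0.24). Unlike Mfn1 and Fis1, the polysome difference of Pink1 was no smaller without WT mouse 2, at 0.79 with an unadjusted limma p of 0.0051. An exact 2-sided permutation test of 3 against 3 arrays cannot give a p below 0.10, and this lowest value was reached by the 5 genes without overlap in polysomes, beside 21.8% of all probes, and by none of the 6 in whole muscle, beside 13.5%.

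The ratio of polysome to whole-muscle signal in the same mouse, called loading in the title of the series, asks whether an mRNA is more or less represented on polysomes for its level in the tissue. With limma 0 of 6 genes differed between genotypes by the fold rule, beside 13.8% of all probes, and 0 on adjusted p, beside 0%. At an unadjusted p below 0.05 only Pink1 of the 6 did, beside 17% of all probes. Pink1 was also the only one of the 6 whose mice did not overlap, beside 25.4% of all probes. Its ratios were 0.16, -0.26 and -0.11 in the WT mice and 0.57, 0.77 and 0.86 in the Het mice. The WT values lay around 0 and the Het values all above it. The difference was 0.80 (SE 0.29, 95% interval 0.14 to 1.47), with an unadjusted limma p of 0.025 and an adjusted p of 0.23, and it was 0.71 without WT mouse 2.

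The other fusion and fission genes had wide intervals for the ratio. Mfn1 had ratios of -0.11, -0.94 and 0.35 in WT and 0.14, 0.73 and 0.44 in Het, a difference of 0.67 (95% interval -0.28 to 1.61) that was 0.31 without WT mouse 2. Dnm1l had 0.24, -2.49 and -0.22 in WT and -0.21, 0.29 and 0.09 in Het, so that its difference of 0.88 (95% interval -0.73 to 2.49) was 0.048 without that mouse. In both genes the lowest ratio was that of WT mouse 2, whose polysome array stood apart. Differences were 0.25 for Mfn2, 0.05 for Opa1 and -0.39 for Fis1, each with a 95% interval that held 0. Those of Mfn2 and Opa1 were -0.07 and 0.13 without WT mouse 2. The median difference of the 6 genes was 0.46, beside 0.17 over all probes, and without that mouse both medians were 0.087. Log2 brightness, polysome minus whole muscle, was itself 2.64 higher in Het, and with it as a term the Mfn1 and Mfn2 differences turned to -0.29 and -0.65, while that of Pink1 was 0.80 (SE 0.54).

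**Figure D4:**
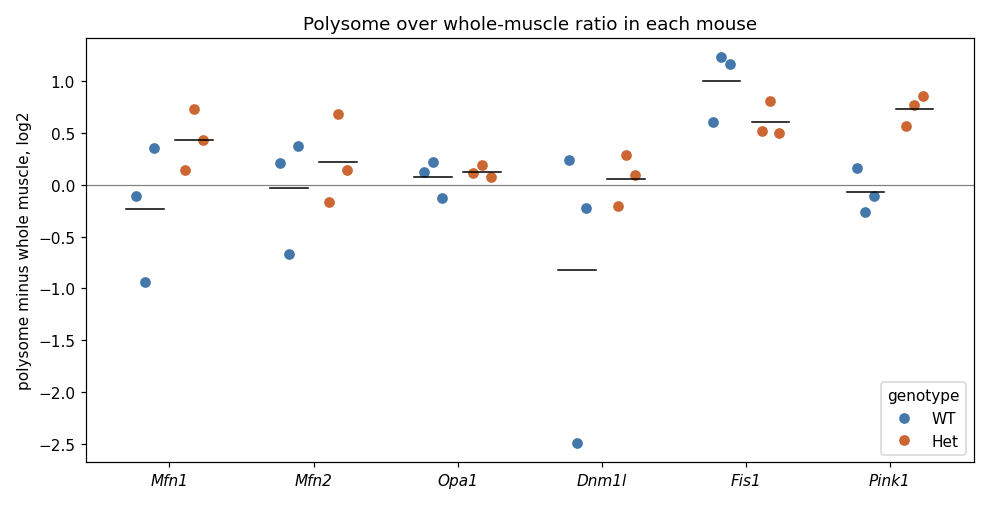
Polysome minus whole-muscle signal of the same mouse (vertical axis, log2) for each of the 6 genes (horizontal axis) in 3 WT and 3 Het mice. Points are mice and black lines genotype means. The Pink1 values of the Het mice, 0.57 to 0.86, lie above those of the WT mice, -0.26 to 0.16, and the lowest point is Dnm1l in WT mouse 2 at -2.49.

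Within a genotype, the same ratios tell which members were over-represented on polysomes. In WT mice Fis1 was, with ratios of 0.60, 1.23 and 1.16, a mean of 0.999 (SE 0.22, limma, adjusted p = 0.023), the only one of the 6 called on adjusted p, beside 21.6% of all probes. This call was lost without Het mouse 1 or WT mouse 3, within either slide and with brightness as a term. It was also lost with scaling to the 75th percentile and with the methods' t-test. The WT mean of Fis1 was 0.88 to 1.20 when each mouse was left out and 0.70 to 1.34 in the other alternatives. In Het mice the Fis1 ratios were 0.52, 0.81 and 0.50, with a mean of 0.61 (SE 0.22, limma, adjusted p = 0.12). In Het mice 0 of 6 were called on adjusted p with limma, beside 8.01% of all probes, and 2 of 6 had an unadjusted p below 0.05, Fis1 and Pink1, beside 29.3%. The mean Pink1 ratio was 0.73 in Het (SE 0.20, limma, adjusted p = 0.067) and -0.07 in WT (SE 0.20, limma, adjusted p = 0.82). Not called with all mice, the Het mean of Pink1 was called without WT mouse 2 (limma, adjusted p = 0.038). That Het mean itself stayed at 0.73, and its SE was 0.17, from the spread shared with WT. The WT mean was then 0.02.

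Monosomes were measured in 2 mice of each genotype, and one of the WT arrays was the one that stood furthest apart. The fold rule called 1 of 6 genes, Dnm1l, beside 28.6% of all probes, and limma called 0 on adjusted p, beside 0.499%. Dnm1l read 7.13 and 1.64 in WT and 7.31 and 7.01 in Het, and the value of 1.64 was not above background. Its difference of 2.78 (SE 1.26) therefore has no exact size, and it was 0.04 without WT mouse 2. It was also not called when any other single mouse except WT mouse 1 was left out, or with 75th percentile scaling, which called Pink1 in its place. The call was lost as well under normexp background correction, in the authors' own table, without a filter on dim probes, with slide, brightness or replicate number as a term, within the slide 1 arrays and in the methods' t-test.

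Groups did not overlap for 3 of 6 genes in monosomes, beside 50.4% of all probes. Pink1 read 10.45 and 9.81 in WT and 11.04 and 10.91 in Het, a difference of 0.85 (SE 0.32) with an unadjusted limma p of 0.021 and an adjusted p of 0.11. Each Het array exceeded each WT array, the closest by 0.46. The probe representing Mfn1 (0.61) did not overlap either, but by 0.01 only, and the other Mfn1 probe overlapped. The upstream Opa1 probe ran the other way (-0.44) without overlap. Leaving out WT mouse 2, with 1 WT array remaining, the differences were 0.52 for Pink1, 0.05 for Mfn1 and -0.22 for Opa1. The median over the 6 genes was 0.34 with that mouse and 0.04 without it. An exact permutation test of 2 against 2 arrays cannot give a p below 0.33.

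Polysomes and monosomes of the same mouse could be set side by side in 4 mice, 2 of each genotype. The fold rule called 2 of 6 genes as higher in polysomes, Dnm1l (1.36) and Pink1 (1.09), beside 22% of all probes in either direction. None of the 6 was called on adjusted p with limma, beside 0% of all probes, while 3 of 6 had an unadjusted p below 0.05, beside 41.1%. The Pink1 ratios were 0.70 and 1.64 in WT and 0.70 and 1.31 in Het. They were above 0 in all 4 mice, with a mean of 1.09 (SE 0.27, limma, adjusted p = 0.067). The Dnm1l ratios were 0.58 and 3.50 in WT and 0.67 and 0.70 in Het. The ratio of 3.50 came from WT mouse 2, whose monosome value was not above background and whose polysome value of 5.14 lay below the lowest signal of probes well above background on that monosome array (5.24), so that it has no size. The means were 0.63 for Dnm1l and 0.85 for Pink1 without that mouse, and neither passed the fold rule. The Mfn1 ratios were 0.46 and 0.89 in WT and 0.91 and 0.88 in Het (mean 0.79, SE 0.22). Fis1 had -0.18, -0.37, 0.09 and -0.18 in Het mouse 1, Het mouse 3, WT mouse 1 and WT mouse 2.

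Over the 6 groups, Het polysomes had the highest mean for Mfn1, Mfn2, Opa1, Dnm1l and Pink1. For Mfn1 (10.20 ± 0.19, SD, n = 3) and Pink1 (11.94 ± 0.25, SD, n = 3) these arrays did not overlap the next group, which was Het whole muscle for Mfn1 (9.76 ± 0.21, SD, n = 3) and WT whole muscle for Pink1 (11.32 ± 0.36, SD, n = 3). For Mfn2, Opa1 and Dnm1l they overlapped it. The whole-muscle groups of Mfn1 overlapped each other and the WT polysome group. Fis1 had another order, with both monosome and both polysome groups above both whole-muscle groups, whose means were 11.76 in WT and 11.65 in Het. Its highest groups, WT monosomes and WT polysomes, overlapped each other, as did the whole-muscle groups. WT polysomes were separate from Het monosomes, these from Het polysomes, and these from WT whole muscle. WT monosomes were lowest for Mfn1, Mfn2, Dnm1l and Pink1. With the arrays of WT mouse 2 left out, they were lowest for Mfn1, Dnm1l and Pink1, WT whole muscle was lowest for Mfn2, and the Fis1 mean of WT monosomes (12.43) lay between those of Het polysomes (12.26) and Het monosomes (12.47).

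Across the 12 whole-muscle and polysome arrays the members did not form one pattern. Mfn1 and Mfn2 were the closest pair (Pearson r = 0.92), followed by Mfn1 and Dnm1l (r = 0.74), Opa1 and Pink1 (r = 0.68) and Mfn2 and Dnm1l (r = 0.68). Dnm1l and Fis1 ran opposite ways (r = -0.61), and Pink1 was close to neither Dnm1l (r = 0.02) nor Fis1 (r = 0.17). Over the 10 arrays left without WT mouse 2, these values were 0.90 for Mfn1 with Mfn2, 0.81 for Opa1 with Pink1, then the second closest pair, 0.67 for Mfn2 with Dnm1l, 0.66 for Mfn1 with Pink1, 0.48 for Mfn1 with Dnm1l, whose place thus rests on that mouse, -0.02 for Dnm1l with Fis1, 0.20 for Dnm1l with Pink1 and 0.24 for Fis1 with Pink1. All of them describe arrays that share mice, slides and RNA kinds. Among 9585 genes well above background on all 12 arrays, the profiles most like Mfn1 were those of Map2k6 (r = 0.95), 2310007J06Rik (0.95) and Eif4g3 (0.95). Most like Mfn2 were Gdap1, a fission-related protein of the outer membrane (0.94), Mfn1 itself (0.92) and 2310007J06Rik (0.92). For Opa1 these were the unnamed transcript NAP069232-1 (0.90), Vldlr (0.89) and Sema6d (0.86). For Dnm1l they were Sept7 (0.99), Eif4a2 (0.99) and Cd55 (0.99), all of them over arrays that include the low WT polysome replicate 2. For Fis1 they were Orai1, Cspg4 and Jund (0.97 each), and for Pink1 the mitochondrial malic enzyme Me3 (0.97), Stat5b (0.92) and Ccbl1 (0.90).

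The wider pathway was read from 3 lists of other genes: 17 of fusion and cristae, 14 of fission and 32 of mitophagy. Of these 63 genes, 61 were tested, and Nipsnap1 and Pld6 were not. In whole muscle 4 of 61 passed the fold rule, a share of 6.56% beside 5.46% of all probes. These were Calcoco2, higher in Het, and Oma1, Mief2 and Tbk1, which were not above background on all arrays: among the 53 list genes that were, Calcoco2 alone passed, beside 2% of all such probes. In polysomes 6 of 61 did, all higher in Het, a share of 9.84% beside 5.51%, and this count was 2 under normexp background correction and in the authors' table. In the polysome to whole-muscle ratio 8 of 61 did, 7 higher and 1 lower, a share of 13.1% beside 13.8%. No list gene passed on adjusted p with limma in any of the 3. The median difference in polysomes was 0.42 over the 61 genes and 0.05 over all probes, with 46 of 61 above 0 beside 53% of all probes, and in the ratio it was 0.42 beside 0.17. Without WT mouse 2 these medians were 0.30 beside 0.03 in polysomes and 0.16 beside 0.09 in the ratio.

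Of the fusion and cristae genes, 15 of 16 had a positive polysome difference, beside 53% of all probes, with a median of 0.59, and 3 passed the fold rule, beside 5.51% of all probes. Immt, the core protein of the complex that holds cristae junctions, read 8.81, 8.70 and 9.35 in WT polysomes and 9.81, 10.33 and 10.05 in Het polysomes, a difference of 1.11 (SE 0.25, limma, adjusted p = 0.20). All 3 Het arrays were above all 3 WT arrays. In the ratio its difference was 1.48 (SE 0.41, limma, adjusted p = 0.15), a call that held when any single mouse was left out. However, it was 0.20 with array brightness as a term (unadjusted limma p of 0.70). Within slide 1 and slide 2, with fewer arrays, it was 1.25 and 1.19 and was not called. Apool, another subunit of that complex, had 1.06, and Yme1l1, an inner membrane protease that cuts Opa1, had 1.47. Yme1l1 was dim, above background on 10 of 12 arrays and on 2 of 3 in WT polysomes, and its genotypes overlapped. The size of its difference is therefore uncertain. Its WT polysome mean was 2.92 as read and 3.71 with the lowest signal above background as a floor, beside 4.40 in Het. Without WT mouse 2 the differences were 0.98 for Immt, 0.56 for Apool and 0.74 for Yme1l1. The polysome call of Immt was lost without WT mouse 2 or Het mouse 2 (0.97), and those of Apool and Yme1l1 without WT mouse 2, Het mouse 1 or Het mouse 2. Oma1, the other protease that cuts Opa1, passed the rule in whole muscle (-1.22) and in the ratio (1.71), but it was above background on 1 of 3 Het whole-muscle arrays and 1 of 3 WT polysome arrays, so that the size of both is uncertain. Its calls were lost without Het mouse 2 or Het mouse 3 in both, and without WT mouse 1 in the ratio.

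Of the fission genes 0 of 14 passed the fold rule in polysomes with limma, beside 5.51% of all probes, and 10 of 14 had a positive difference beside 53% of all probes, with a median of 0.40. Mief2, an outer membrane receptor for Dnm1l, read 5.21, 4.91 and 5.18 in WT whole muscle and 2.57, 3.83 and 3.88 in Het whole muscle. No Het array of whole muscle was above background for Mief2. On these normalized signals WT was at least 1.89-fold higher there (limma, adjusted p = 0.44). This bound was taken against the lowest signal of probes well above background on each Het array. Under other processing the Het minus WT difference was smaller, -0.39 with normexp background correction and -0.46 in the authors' table, neither called. The whole-muscle call was also lost without Het mouse 1 (-1.24). The Mief2 call in the ratio rests on the same whole-muscle arrays and has no exact size.

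Of the mitophagy genes, 3 of 31 passed the fold rule in polysomes, beside 5.51% of all probes. Of the 31, 21 were above 0, beside 53% of all probes, with a median of 0.38. Gbas (Nipsnap2), which attracts autophagy receptors to damaged mitochondria, read 8.26, 8.16 and 8.89 in WT polysomes and 9.58, 9.60 and 9.60 in Het polysomes, a difference of 1.16 (SE 0.22, limma, adjusted p = 0.19). The lowest Het array was 0.70 above the highest WT array, and without WT mouse 2 the difference was 1.02. The autophagy receptor Tax1bp1 (1.09) and the mitophagy receptor Fundc1 (1.03) also passed the rule, and were 0.92 and 0.62 without that mouse. The Fundc1 call was also lost without Het mouse 1 or Het mouse 2. Of the 6 list genes called in polysomes, Gbas alone was called without WT mouse 2, when Mief2 and Sqstm1 were called as well, 3 of 61 in all beside 4.03% of all probes.

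In the ratio the mitophagy genes called were Tbk1, a kinase of autophagy receptors, the receptors Sqstm1 (1.65) and Tax1bp1 (1.30), Gbas (1.01) and, lower in Het, the receptor Calcoco2 (-2.18). Calcoco2 read 4.65, 6.18 and 5.96 in WT whole muscle and 6.01, 6.66 and 7.51 in Het whole muscle, while its polysome values were 6.64, 7.55 and 6.75 in WT and 6.31, 5.37 and 6.13 in Het. The whole-muscle difference of Calcoco2 was 1.13, but it was 0.66 without WT mouse 1, its call held in 2 of 6 fits that left out a mouse, and it turned to -0.21 with brightness as a term. The calls of Calcoco2 and Tax1bp1 in the ratio held when any single mouse was left out. However, with brightness as a term the differences were -0.67 and 0.11 (unadjusted limma p of 0.44 and 0.84). Within slide 1 and slide 2, with fewer arrays, Calcoco2 was at -1.91 and -1.59 and Tax1bp1 at 1.03 and 0.99, none of them called. The Sqstm1 call in the ratio was lost without Het mouse 1, Het mouse 3 or WT mouse 1 (0.93). The Sqstm1 ratio of WT mouse 1 was -2.66 beside -0.35 and -0.66 in the other WT mice. The Gbas call in the ratio held in 1 of 6 fits that left out a mouse. Tbk1 was above background on 1 of 3 WT polysome and 2 of 3 Het whole-muscle arrays, so that the sizes of its whole-muscle and ratio differences are not known. Its whole-muscle call was lost without Het mouse 2 or any single WT mouse, and its call in the ratio without WT mouse 1. With array brightness as a term 0 of 61 genes passed the fold rule in the ratio with limma, beside 4.08% of all probes.

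**Figure D5:**
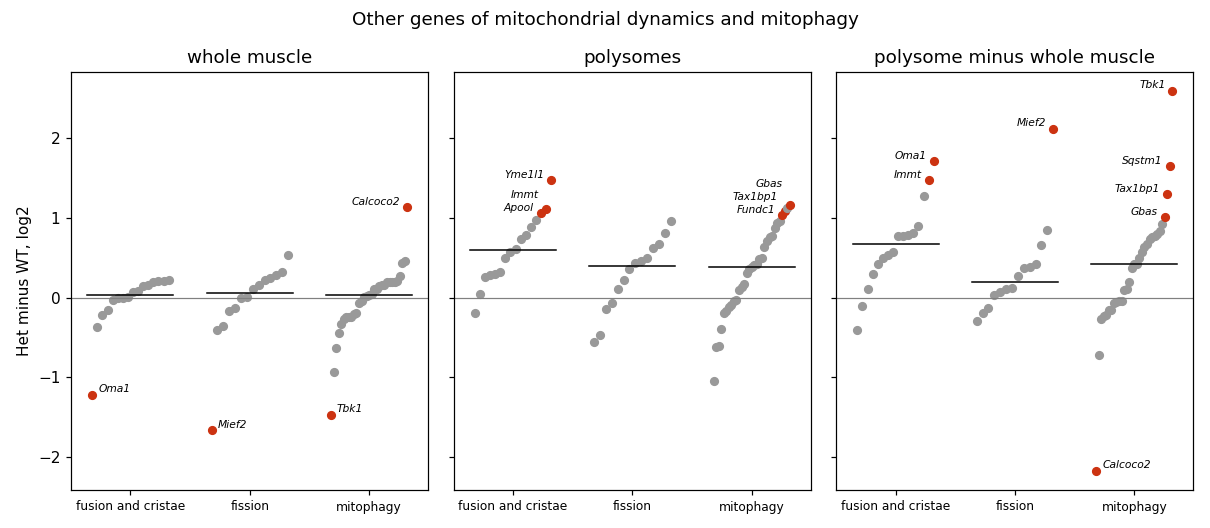
Het minus WT difference (vertical axis, log2) of the 61 other genes of mitochondrial fusion and cristae, fission and mitophagy (horizontal axis, sorted within each list) in whole muscle, in polysomes and in the polysome minus whole-muscle ratio. Points are genes, red and named where the fold rule was passed, and black lines are list medians. In polysomes 15 of 16 fusion and cristae genes lie above 0 and the 6 named genes are all higher in Het.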

How the data were processed

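RNA of 16 muscles or gradient fractions was hybridised in one colour to Agilent mouse arrays, which the authors scanned and deposited as Feature Extraction 11.0.1.1 output, with probe positions on mm9. The deposited intensity of each spot is the processed signal, background-subtracted by that software. The authors' deposited table of log2 values, quantile-normalized per the methods, served as an alternative. Log2 signals were taken without control spots and outlier-flagged spots, averaged per probe and quantile-normalized over 16 arrays in limma 3.58.1 (R 4.3.3). A probe was tested if any group had it well above background on all its arrays, which left 19812 in the whole-muscle and polysome fit and 20250 where monosomes entered. Genotypes were compared with lmFit and eBayes over groups that shared a common spread per probe across RNA kinds. Arrays of the same mouse counted separately there. Ratios were compared over mice, since both RNAs of a ratio came from the same mouse. Same-mouse arrays correlated in their deviations at 0.059 to 0.49, and the pairing comes from the series' design. P-values were adjusted by Benjamini-Hochberg over all tested probes, and intervals are 95%. The code was tested on simulated data.

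The 6 genes and the lists were chosen with earlier results of these data known. All 6 are described with all their probes, together with list genes passing either call rule between genotypes in whole muscle, polysomes or their ratio and, for each member, the 3 genes of highest Pearson r. Replicates are separate mice. The number of arrays limits precision. Alternatives were other scaling and background correction (normexp, offset 50), filters, slide, brightness or replicate number as terms, the methods' t-test, and leaving out each mouse. Figures were drawn with matplotlib. A further gene of the set and a marker are not reported here.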

Additional observations from a re-analysis of the deposited data

How the results depend on the processing

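Of 740 values of the 6 genes recomputed under an alternative, 694 kept their direction. Counts of members past the fold rule were 0 of 6 under all 18 alternatives in whole muscle and in the ratio between genotypes. In polysomes the count ranged from 0 to 1 when each mouse was left out (Dnm1l without WT mouse 1 or WT mouse 3) and was 0 in the other fits. The share of all probes past the rule was 5.51% with all mice and 4.03% without WT mouse 2. The downstream Opa1 probe, in place of the representing probe, passed the rule with all mice (1.13). The Pink1 difference kept its sign in 18 of 18 alternatives in polysomes (0.44 to 0.88) and in 18 of 18 in the ratio (0.48 to 1.07). Its unadjusted p was below 0.05 in 14 and in 9 of these. These p-values are from limma, except in the alternative that uses the methods' t-test. The Mfn1 polysome difference kept its sign in 18 of 18 (0.55 to 0.94, below 0.05 in 15). Fis1 polysome differences ran from -0.62 to -0.32, below 0.05 in 8 of 18. The cause of the changes that follow was not tested.

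In monosomes the count of 1 became 0 under normexp, in the authors' table, with the all-array filter (which leaves no Dnm1l value), without a filter, with slide or brightness as a term, within slide 1 and by the methods' t-test, 2 within slide 2 (beside 53.7% of all probes), and 0 to 3 when each mouse was left out (beside 8.61% to 55.8%). Within a slide the monosomes are 1 WT against 1 Het array, and leaving out a mouse with monosomes leaves 1 array in its group, so that a lone array was assumed to vary like the other groups. Numbers do not pair WT with Het mice, since same-numbered arrays correlated at -0.33 to 0.46. With the replicate block the monosome count was 0, and the whole-muscle and polysome counts were 0 as before. Unpaired, with no replicate block, polysomes minus monosomes gave 2 genes on adjusted p (beside 26% of all probes), and no other count changed. The counts that follow, for the WT and Het ratios and for polysomes minus monosomes, are on adjusted p. With all mice they were 1 of 6 for the WT ratio (beside 21.6% of all probes), 0 for the Het ratio (beside 8.01%) and 0 for polysomes minus monosomes (beside 0%). The WT count for polysomes minus whole muscle became 0 with 75th percentile scaling, within slide 1, within slide 2, with brightness and by the t-test, and was 0 to 1 when each mouse was left out. The Het count became 2 under normexp, 1 in the authors' table and 1 with the all-array filter (beside 14.7%, 14.1% and 22.8%), and 0 to 1 when each mouse was left out (beside 0% to 17%). Polysomes minus monosomes gave 3 of 6 with 75th percentile scaling, 3 under normexp, 3 in the authors' table and 2 of 5 with the all-array filter (beside 25.2%, 24.9%, 25.9% and 51.5% of all probes), and 0 to 3 when each mouse was left out (beside 0% to 49.7%). Without WT mouse 2, an alternative chosen after seeing the data, 1 of 6 genes (Mfn2) did not overlap in whole muscle, beside 30.1% of all probes, where none had, beside 13.5%.

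With 75th percentile scaling, whole-muscle Fis1 was 0.040 and Pink1 0.0036, and the Het ratio of Mfn2 -0.13. Within slide 1, whole-muscle Opa1 was -0.0024, Dnm1l -0.19 and Fis1 0.11, monosome Fis1 0.037, and WT ratios 0.078 for Mfn2, -0.10 for Opa1 and 0.033 for Pink1. Within slide 2, ratio differences were -0.013 for Mfn2 and -0.42 for Dnm1l, WT ratios 0.062 for Mfn2 and 0.25 for Dnm1l, and the Het ratio of Dnm1l -0.17. With slide as a term, the WT ratio of Mfn2 was 0.068 and the Het ratio of Dnm1l -0.052. With brightness as a term, whole-muscle Opa1 was -0.059, ratio differences were -0.29 for Mfn1 and -0.65 for Mfn2, monosome Mfn2 -0.017, WT ratios 0.25 for Mfn1, 0.42 for Mfn2 and -0.018 for Opa1, and Het ratios -0.044 for Mfn1, -0.23 for Mfn2 and -0.35 for Dnm1l. Other probes turned the sign for Mfn2 (-0.13 in whole muscle, -0.16 in monosomes, -0.025 in polysomes minus monosomes), Opa1 (2.84 in monosomes, -0.81 for the WT ratio; the first rests on WT monosome replicate 2, not above background there, and was 0.02 without WT mouse 2, the second -0.0048) and Mfn1 (0.045 for the WT ratio).

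Leaving out each mouse in turn gave ranges across 0 in whole muscle for Mfn1 (-0.020 to 0.25) and Pink1 (-0.28 to 0.077). In the ratio between genotypes they were Mfn2 (-0.071 to 0.45) and Opa1 (-0.044 to 0.13), and in monosomes Mfn2 (-0.0054 to 0.17) and Fis1 (-0.83 to 0.034). For the WT ratio they were Mfn1 (-0.52 to 0.12), Mfn2 (-0.23 to 0.29), Opa1 (-0.0021 to 0.17), Dnm1l (-1.36 to 0.0086) and Pink1 (-0.19 to 0.024). For the Het ratio they were Mfn2 (-0.013 to 0.41) and Dnm1l (-0.059 to 0.19). Signals near background, such as the list genes Oma1, Mief2, Tbk1 and Yme1l1, limit what could be seen. The counts of list genes past the fold rule moved as well. In whole muscle they were 0 of 61 under normexp and in the authors' table (beside 0.212% and 0.272% of all probes with limma), and 2, all lower, with brightness or slide as a term (beside 3.74% and 4.24%). In polysomes they were 2 under normexp, 2 in the authors' table, 1 with brightness and 3 with slide, all higher (beside 1.1%, 1.35%, 3.57% and 3.48%), and 9 higher and 1 lower with 75th percentile scaling (beside 6.72%). In the ratio they were 2 higher and 1 lower under normexp and in the authors' table (beside 2.96% and 4.11%), and with the slide term 5 of the 61 were called, 4 of them higher in Het (beside 10.6%).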
